A study of Sus scrofa with 120 samples.

Results

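The cytosolic ribosomal protein genes were followed through an RNA sequencing study of pig cartilage cells under mechanical load, channel drugs and a cytokine. The members were the protein-coding lines of the gene table whose symbol is RPL or RPS with a number, together with RPSA and the stalk proteins RPLP0 and RPLP2. This choice used names only and gave 56 of 31907 genes. Of these, 51 belong to the 80 core proteins of the cytosolic ribosome (29 of the large and 22 of the small subunit), and 5 are paralogue copies (RPL7L1, RPL3L, RPL10L, RPL26L1 and RPS27L). Of the 29 core genes that are not members, 17 have a line without a usable symbol or of another name and 12 have no line under their symbol, so the members are not the whole ribosome.

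Ribosomal proteins assemble with ribosomal RNA into the large and small subunits that make every cellular protein. Cells need them in matched amounts, and their mRNAs share a pyrimidine tract at the start (TOP mRNAs) through which mTOR signalling adjusts their translation together. Chondrocytes use this machinery to build the collagen and proteoglycan matrix of cartilage, and several of these genes serve as reference genes for PCR because they are taken to be steady.

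Primary chondrocytes from pig femoral cartilage were cast in 2% agarose and given 1 of several stimuli, with 4 constructs per group and 30 groups in all. In the TRPV4 experiment (48 libraries), wild-type constructs were harvested 3 h and 9 h after onset of DMSO vehicle (free swelling), GSK101 at 1 nM, which activates TRPV4, GSK205 at 10 mM as the labels print it, which blocks TRPV4, IL-1 alpha (1 ng/mL), cyclic compression of 10% at 1 Hz for 3 h, or the same loading with GSK205. In the PIEZO1 experiment (72 libraries), non-transfected constructs (NT), constructs given a non-targeting siRNA (siNTC) and constructs given a pool of PIEZO1 siRNAs (siPIEZO1) each received vehicle, a single compression to 80% deformation, or the PIEZO1 agonist Yoda1 (5 mM as printed), with the same harvest times. The labels give no animal, so the libraries of a group may share a source and the p-values below measure only the spread between these constructs.

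Library totals ran from 20651530 to 80223797 counts in the TRPV4 experiment and from 36807992 to 66240251 in the PIEZO1 experiment. The experiments used different library kits and were tested apart. Levels are given as CPM, counts brought to a common library size with TMM scaling, which was done separately for each experiment and harvest. They depend on transcript length, so levels of different genes are not compared. The cartilage collagen gene COL2A1 was at 33199 to 72128 CPM in the TRPV4 and 3474 to 8360 CPM in the PIEZO1 libraries, while the leukocyte gene PTPRC reached at most 0.33 and 0.56 CPM. PIEZO1 itself differed on the log2 scale by -0.66 between siPIEZO1 and siNTC vehicle constructs at 9 h (SE 0.23, adjusted p = 0.062) and by -0.24 at 3 h (SE 0.19, adjusted p = 0.58), so the knockdown did not pass the test at the RNA level. In bulk RNA, fewer cells of a type and less RNA per cell cannot be told apart.

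The members together took 2.72 to 4.38% of all counts in the TRPV4 libraries (median 3.59%) and 5.28 to 8.90% in the PIEZO1 libraries (median 6.68%). At 3 h the shares in the 4 DMSO libraries were 3.50, 3.59, 3.52 and 3.60%. They were 3.92, 3.92, 4.11 and 4.21% with GSK205 and 4.38, 4.11, 4.06 and 4.12% with loading and GSK205. Both antagonist groups lay above every DMSO library. With GSK101 they were 2.72, 3.06, 2.88 and 3.18%, below every DMSO library, and with loading alone 3.34, 3.57, 3.59 and 3.84%, on both sides of the DMSO range. At 9 h the DMSO shares were 3.63, 3.52, 3.58 and 3.52%. The loaded libraries stood highest, at 4.20, 3.98, 3.97 and 4.10%, and the IL-1 libraries lowest, at 3.22, 3.28, 3.25 and 3.15%. Loading with GSK205 lay between loading and DMSO, at 3.72, 3.84, 3.72 and 3.74%. None of these 3 groups overlapped DMSO. As a share of protein-coding counts, however, loading with GSK205 overlapped DMSO at 9 h (4.04 to 4.24% against 3.87 to 4.06%). On that measure GSK205 alone at 3 h (4.29 to 4.73%) stayed only just above DMSO (3.93 to 4.28%).

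**Figure D1:**
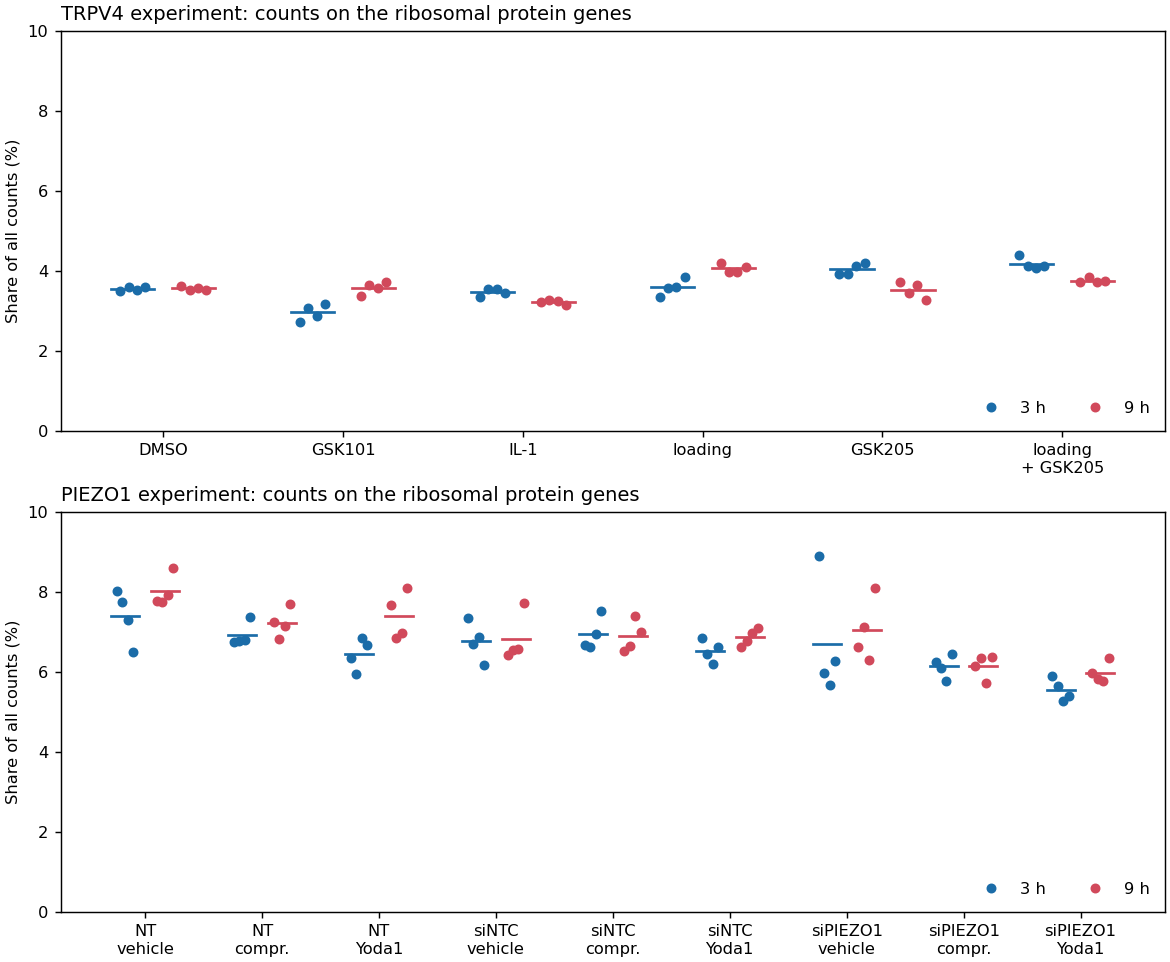
Share of all counts (percent, vertical axis) held by the 56 members in every library, by group and harvest, with 1 point per library and a bar at the group mean. In the TRPV4 experiment the 2 GSK205 groups at 3 h and both loaded groups at 9 h sit above the DMSO libraries, and GSK101 at 3 h and IL-1 at 9 h sit below them.

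GSK205 alone raised most members at 3 h. Of 55 members tested, 36 rose and none fell, against 27.1% of all genes called in either direction and 14.6% called higher. The median member difference from DMSO was 0.28 on the log2 scale, and both subunits took part, with 21 of 29 large-subunit and 14 of 22 small-subunit members higher. RPL4, a large-subunit protein encoded on chromosome 1 (164476269 to 164481765 in the Sscrofa11.1 RefSeq table), was at 1586, 1675, 1595 and 1524 CPM in DMSO and at 2004, 2028, 2079 and 2074 CPM with GSK205. The groups did not overlap, and the log2 difference was 0.36 (SE 0.05, adjusted p = 3.3e-06).

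The largest rises with GSK205 at 3 h were of RPS3A (0.45), RPL23 (0.44) and RPL6 (0.42). RPS3A, a small-subunit protein, went from 826, 803, 798 and 744 CPM in DMSO to 1057, 1029, 1104 and 1133 CPM. Both proteins of the particle that carries 5S ribosomal RNA into the large subunit rose with it: RPL5 by 0.40 (SE 0.05) and RPL11 by 0.31 (SE 0.05). Members that did not pass the test included RPL38 (0.01), RPS21 (0.10), RPS28 (-0.08), RPS13 (-0.18), RPL29 (-0.30) and RPLP2 (0.11). Whether members differed from each other in this effect was not tested. All of those just named were also called lower in DMSO at 9 h than at 3 h, from RPL29 (-0.54) to RPS21 (-0.27). The 3 h DMSO libraries are in both comparisons.

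GSK205 given with loading also stood above loading alone at 3 h. The difference was called higher for 48 of 55 members and lower for none (15.3% of all genes called, 7.11% higher), with a median of 0.30. All 22 small-subunit and 25 of 29 large-subunit members passed. RPL4 was at 1540, 1641, 1710 and 1779 CPM with loading and at 2074, 1989, 2022 and 2018 CPM with loading and GSK205, without overlap (0.28, SE 0.05, adjusted p = 0.00022). RPS16, the largest, stood at 326, 342, 361 and 378 CPM with loading and at 547, 448, 420 and 428 CPM with both (0.39, SE 0.08), where replicate 1 was the highest of its group. Loading added to GSK205 changed 1 member, RPL7L1 (0.25; 11.9% of all genes called, 7.58% higher). The last 2 comparisons share the combined group. The loading effect with and without the antagonist differed at 3 h for RPS13 only (interaction; 2.25% of all genes called, 0.894% higher, and 8 members at an unadjusted p under 0.05). That call was lost without any 1 of 10 libraries: GSK205 replicates 1, 2 and 3, DMSO replicates 2 and 4, loaded replicates 1, 2 and 3, and replicates 1 and 2 of both treatments. Without DMSO replicate 1, 2 members were called.

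**Figure D2:**
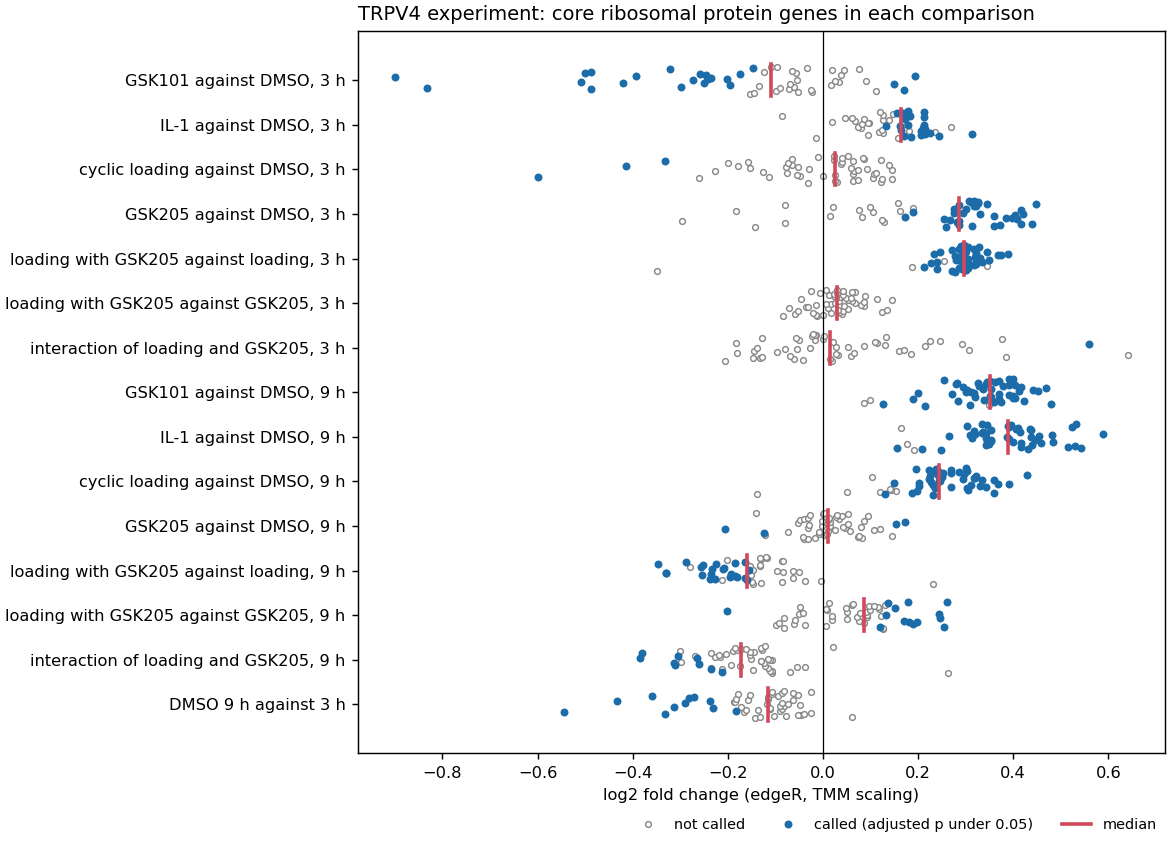
Log2 fold change (horizontal axis) of the 51 core members in each comparison of the TRPV4 experiment (vertical axis), with 1 point per gene, filled where it passed the test, and a bar at the median. The points of GSK205 at 3 h and of loading with GSK205 against loading at 3 h lie mostly above 0, and those of loading alone at 3 h lie around it.

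Loading by itself at 3 h was called for few members. RPL7L1 rose and RPL29, RPS13 and RPS28 fell (1 higher and 3 lower of 55, against 10.2% of all genes called, 7.86% higher and 2.3% lower), and the median was 0.02. RPS13, a small-subunit protein encoded on chromosome 2 (42030585 to 42033382), was at 159, 221, 177 and 221 CPM in DMSO and at 130, 146, 150 and 159 CPM with loading. The highest loaded library lay just below the lowest DMSO library, and the log2 difference was -0.41 (SE 0.10, adjusted p = 0.0090). RPL7L1, a copy of the large-subunit gene RPL7 that works in ribosome assembly, was at 44.3, 43.7, 41.3 and 40.0 CPM in DMSO and at 50.4, 51.0, 56.6 and 52.9 CPM with loading, without overlap (0.32, SE 0.06, adjusted p = 0.00072). The count of 4 members went to 7 without DMSO replicate 1, 2 without DMSO replicate 2, 1 without DMSO replicate 4 and 2 without loaded replicate 2.

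At 9 h loading raised 47 of 55 members and lowered none, against 23.7% of all genes called and 12.5% called higher. The median was 0.24, with 23 of 29 large-subunit and 21 of 22 small-subunit members higher. RPLP0 (chromosome 14, 40219196 to 40223943), the base of the stalk that recruits elongation factors to the ribosome, was at 2253, 2030, 2318 and 2097 CPM in DMSO and at 2943, 2821, 2662 and 2741 CPM with loading. The groups did not overlap (0.36, SE 0.05, adjusted p = 2.4e-06). The largest rises were of RPS21 (0.43), RPL38 (0.39) and RPL37A (0.37). RPS21, a small-subunit protein, was at 251, 213, 234 and 204 CPM in DMSO and at 332, 308, 288 and 285 CPM with loading, again apart.

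The 3 h and 9 h effects of loading were compared directly in a test added after the first results were seen. They differed for 30 of 55 members, all toward a more positive effect at 9 h (9.37% of all genes called, 4.75% higher). RPS13 changed by 0.77, RPL38 by 0.66 and RPS21 by 0.62. The difference between the DMSO harvests enters this test. In DMSO fitted alone, RPS13 (-0.43), RPL38 (-0.31) and RPS21 (-0.27) were called lower at 9 h than at 3 h. With library totals as the only scaling the count was 19.

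With GSK205 present, the loaded constructs at 9 h stood lower than loaded constructs without it. The test called 23 members lower and none higher (4.1% of all genes called, 1.99% lower), with a median of -0.16. The largest were RPS21 (-0.35), RPL38 (-0.33) and RPL37A (-0.33). This comparison and that of loading with DMSO share the loaded libraries. RPS21 was at 242, 249, 231 and 233 CPM with loading and GSK205 and at 248, 209, 219 and 247 CPM with GSK205 alone. All 4 loaded libraries without the antagonist, given above, were higher than these. Without loaded replicate 1 the count was 7, and without replicates 1, 3 or 4 of loading with GSK205 it was 12, 9 or 15. DESeq2 called 37, and library totals alone 15.

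The interaction at 9 h was called for 9 members, all with a smaller loading effect in the presence of GSK205 (4.64% of all genes called, 2.41% lower). RPLP2 (-0.39), RPS21 (-0.38) and RPL37 (-0.31), a stalk, a small-subunit and a large-subunit protein, were the largest. RPLP2 was at 696, 609, 624 and 683 CPM in DMSO and 891, 803, 811 and 788 CPM with loading, against 753, 657, 692 and 802 CPM with GSK205 and 716, 702, 672 and 714 CPM with both. For RPLP2, loaded and unloaded libraries were apart without the antagonist and overlapped with it. DESeq2 called 22 members and totals scaling 3, and without GSK205 replicate 2 the count was 17. Loading with GSK205 against GSK205 at 9 h still called 13 members higher and RPS15A lower (18.0% of all genes called, 8.82% higher and 9.2% lower), with a median of 0.08. The count of 14 was 7 without GSK205 replicate 2 and 9 without replicate 2 of both treatments.

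GSK205 alone at 9 h was called for few members, 5 of 55 (21.2% of all genes called, 12.1% higher and 9.15% lower). RPL7L1 (0.20), RPS15A (0.17) and RPLP2 (0.15) were higher and RPL37A (-0.21) and RPL3 (-0.12) lower. The median was 0.01. The count was 2 without GSK205 replicate 3 or DMSO replicate 3 and 8 without DMSO replicate 4. The effect differed from that at 3 h for 30 members, all lower at 9 h (19.6% of all genes called, 8.18% lower). RPS9 (-0.42), RPL3 (-0.39) and RPS3A (-0.38) led these. This test was also added after the first results were seen.

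**Figure D3:**
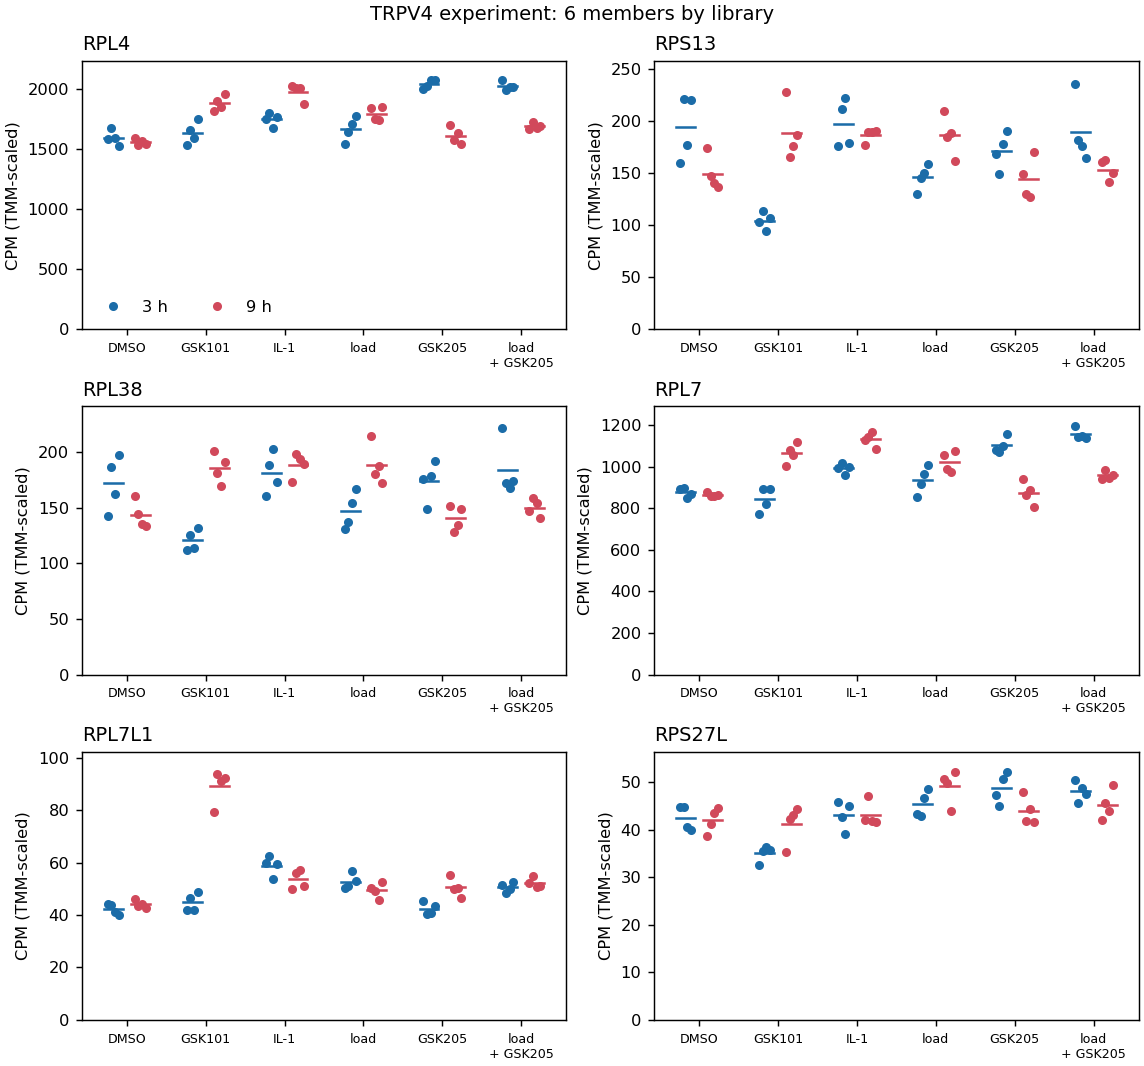
CPM (vertical axis, separate scale for each gene) of 6 members in every TRPV4 library by group and harvest, with 1 point per library and a bar at the mean. RPL4 is higher with GSK205 at 3 h, RPS13 and RPL38 are lower with GSK101 at 3 h, and RPL7L1 is highest with GSK101 at 9 h, at 79.4 to 93.8 CPM.

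GSK101 lowered more members than it raised at 3 h. It lowered 23 and raised 3 of 55 (40.0% of all genes called, 18.0% lower and 22.0% higher), with a median of -0.12. The largest falls were of RPS13 (-0.90, SE 0.10), RPL29 (-0.83, SE 0.18) and RPL38 (-0.51, SE 0.10). RPS13 was at 103, 114, 94.5 and 107 CPM with GSK101, below all 4 DMSO libraries. RPL38, a large-subunit protein, was at 143, 186, 162 and 197 CPM in DMSO and 112, 126, 114 and 132 CPM with GSK101, also apart. RPS15A (0.19), RPL23 (0.17) and RPL35 (0.15) were called higher. Of these, RPL35 had a log2 difference of -0.01 with totals scaling, under which 44 members were called lower and none higher. With only the groups compared, 23 were called lower and none higher. Without a low-count filter 1 was called higher, and with protein-coding genes only 2. With DESeq2, TMM without the members or a replicate block it was 3 each.

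These GSK101 libraries differed from DMSO in more than the drug. They held 62677053 to 80223797 counts against 20651530 to 29904509, and the share of counts on small RNA genes was 2.78 to 4.34% with GSK101 and 6.46 to 13.2% with DMSO. Ribosomal RNA took 0.848 to 3.67% against 0.375 to 1.62%, and mitochondrial rRNA and tRNA 0.808 to 3.04% against 0.334 to 0.868%. Small nucleolar RNAs, many of which lie in introns of ribosomal protein genes, were lower for 57 and higher for 8 of 175 tested. Of all genes, 18.0% were called lower and 22.0% higher. The part of depth or of these RNA classes in the member differences was not tested. The SD of the log2 differences among the 51 core members was 0.226 here. Against DMSO at the same harvest it was 0.171 for GSK205, 0.150 for loading and 0.0720 for IL-1.

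IL-1 gave a small rise at 3 h that rested on the scaling. It was called higher for 25 of 55 members and lower for none (32.2% of all genes called, 18.5% higher), with a median of 0.16 under TMM and of -0.02 under library totals, where 1 was higher and 2 lower. RPL7L1 had the largest difference, from 44.3, 43.7, 41.3 and 40.0 CPM in DMSO to 59.8, 62.5, 53.7 and 59.5 CPM with IL-1, without overlap (0.48, SE 0.06, adjusted p = 2.4e-07). RPL26 followed (0.31, SE 0.10). The count was 12 without IL-1 replicate 2, 15 without DMSO replicate 1 and 14 without DMSO replicate 3.

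At 9 h the rise of the family under GSK101 was lost with totals scaling, and that under IL-1 turned to a fall. Under TMM, GSK101 raised 49 of 55 members and lowered none (62.3% of all genes called, 29.3% higher; median 0.35), but under library totals 5 were higher and 8 lower (median 0.03). Under TMM, IL-1 raised 49 and lowered RPL3L (65.1% of all genes called, 30.6% higher and 34.5% lower; median 0.35), whereas under library totals none was higher and 34 were lower (median -0.18). The choice of scaling moved the median of all genes by -0.33 for GSK101 and -0.53 for IL-1, and at 3 h by -0.16 and -0.18. TMM asks how the members stand against most other genes, and totals ask what share of all counts they hold. Against other genes they were higher in both groups, and as a share of counts the IL-1 libraries were the lowest of the harvest.

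RPL7L1 (chromosome 7, 37940549 to 37948258) had the largest rise of any member with GSK101 at 9 h. It was at 46.1, 43.3, 44.2 and 42.9 CPM in DMSO and at 79.4, 93.8, 91.1 and 92.4 CPM with GSK101 (1.02, SE 0.06, adjusted p = 4.6e-16). Its parent RPL7 was at 877, 860, 860 and 864 CPM in DMSO and 1005, 1081, 1057 and 1119 CPM with GSK101, a log2 difference of 0.30 (SE 0.05). Both pairs of groups were apart. With IL-1, RPL7L1 was at 50.0, 56.0, 57.3 and 51.1 CPM, above DMSO but below every GSK101 library (0.28, SE 0.06).

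With IL-1 at 9 h the largest rises under TMM were of RPS12 (0.59), RPL21 (0.54) and RPS9 (0.53). RPS12, a small-subunit protein, was at 928, 853, 896 and 868 CPM in DMSO and 1293, 1370, 1347 and 1322 CPM with IL-1, without overlap. RPS9 had a log2 difference of -0.00028 under totals scaling. RPL3L, a copy of RPL3 known from striated muscle, was at 0.872, 1.02, 0.837 and 0.477 CPM in DMSO and 0.794, 0.199, 0.143 and 0.363 CPM with IL-1. The groups overlapped, and 2 to 48 counts per library in the TRPV4 experiment lie behind this gene.

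Tests between harvests for GSK101 and IL-1 were likewise added after the first results were seen. The change of effect from 3 h to 9 h was called for 52 members under GSK101, all upward (45.4% of all genes called, 23.7% higher). The leading members were RPS13 (1.30), RPL7L1 (1.00) and RPL29 (1.00), and the count with totals scaling was 38. For IL-1 it was called upward for 41 (38.4% of all genes called, 19.1% higher), but with totals scaling 10 were called, all downward. DMSO itself at 9 h against 3 h had 11 members lower and none higher (21.8% of all genes called, 11.1% lower). RPL29 (-0.54), RPS13 (-0.43) and RPS28 (-0.36) led these. These are the 3 h DMSO libraries to which the other 3 h groups were compared. With totals scaling the DMSO count was 1. It was 21 without the 3 h replicate 1, 6 without the 3 h replicate 2 or the 9 h replicate 4, and 5 without the 9 h replicate 2 or 3.

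Members with a known further role were the stalk proteins and the 5S particle. The stalk proteins RPLP0 and RPLP2 were called higher at 9 h with loading (0.36 and 0.33), GSK101 (0.41 and 0.45) and IL-1 (0.45 and 0.48), the last 2 under TMM. RPLP2 was also called with GSK205 at 9 h and not at 3 h, as given above. RPL5 and RPL11, whose free complex is known to restrain MDM2 and so link ribosome assembly to p53, were at 0.15 and 0.13 with loading at 9 h, at 0.20 and 0.31 with GSK101 and at 0.31 and 0.43 with IL-1, all called. The medians of all members in these comparisons were 0.24, 0.35 and 0.35. Of 14 genes of a p53 list, loading at 9 h had 3 higher and 2 lower, GSK101 5 higher and 8 lower and IL-1 7 higher and 4 lower. Of all genes, 23.7% were called with loading (12.5% higher) and 62.3% with GSK101 (29.3% higher). With IL-1 it was 65.1% (30.6% higher and 34.5% lower). The difference of the p53 list from all genes was not tested. The p53 target CDKN1A was at -0.18 with loading, 1.24 with GSK101 and 1.19 with IL-1, all called.

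With loading at 9 h the paralogue copies RPL26L1 (0.31), RPS27L (0.23) and RPL7L1 (0.17) rose, and RPL3L was at -0.44 and did not pass the test. RPS27L, a copy of RPS27 known as a p53 target, was lower with GSK101 at 3 h (-0.27, SE 0.06) and was at -0.02 at 9 h, where 49 members were higher. It was at 44.7, 44.8, 40.5 and 39.8 CPM in DMSO at 3 h and 32.6, 35.6, 36.2 and 35.8 CPM with GSK101, apart. RPL26L1 was at 0.01 with GSK101 and -0.13 with IL-1 at 9 h, where RPL26 was at 0.28 and 0.53. The difference between a copy and its parent was not tested. RPL10L, a copy of RPL10 known from testis, had 0 to 6 counts in the TRPV4 libraries and was not tested there.

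Among 7 ribosomal protein genes used as PCR references (RPL19 included, which is no member), 7 were higher with loading at 9 h, 7 with loading and GSK205 against loading at 3 h, and none with loading at 3 h. Of all genes, 12.5, 7.11 and 7.86% were called higher in these comparisons. Counts for GSK101, IL-1 and GSK205 alone are not given here. The highest group mean was 1.36 times the lowest for the median core member at 3 h in the TRPV4 experiment (1.18 for RPL28 to 2.07 for RPL29) and 1.33 times at 9 h (1.11 for RPL22 to 1.59 for RPS9). For 11 reference genes of other kinds the median ratios were 1.37 and 1.87, with YWHAZ at 2.82 at 9 h. At 3 h the core members thus spanned about the same range as these genes, and at 9 h a smaller one. In the PIEZO1 experiment the medians were 1.44 and 1.53 for core members and 1.43 and 1.37 for the other references. No test of these ratios was made. They rest on TMM-scaled CPM and were not taken under totals scaling. Among the ends of these ranges, the RPL29 line is low and the RPL22 line is of uncertain identity, as given below.

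**Figure D4:**
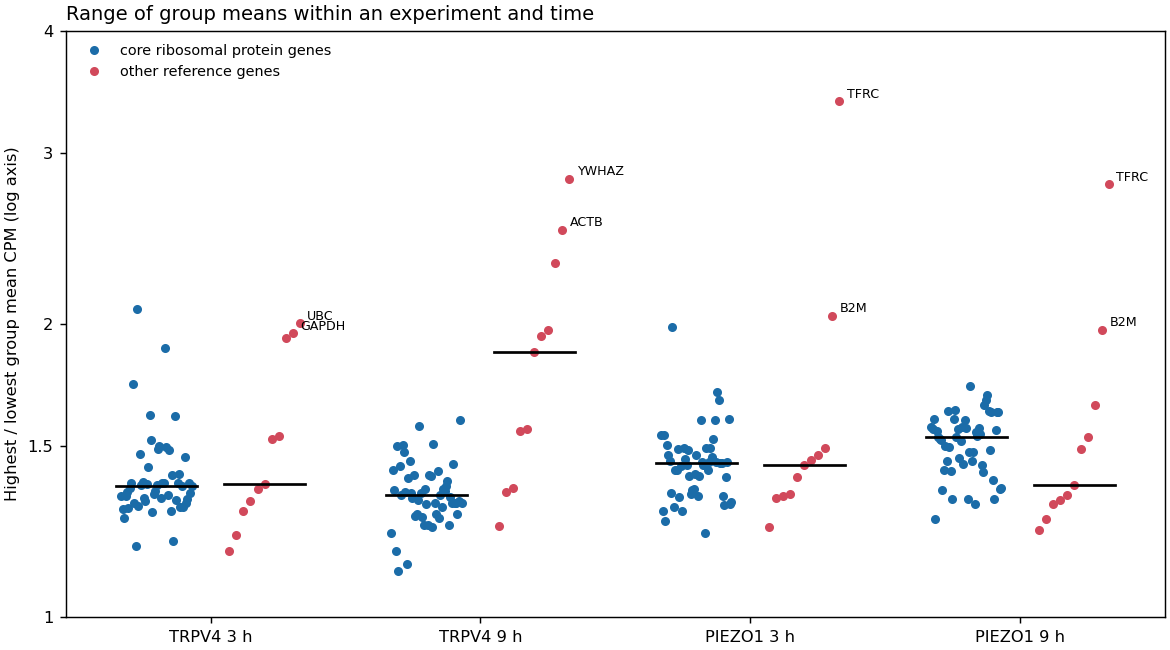
Highest group mean divided by lowest group mean (vertical axis, ratio of CPM, log axis) within each experiment and harvest, with 1 point per gene for the 51 core members and for 11 reference genes of other kinds, and a bar at the median. At 9 h in the TRPV4 experiment the core members (median 1.33) lie below the other references (median 1.87), and at 9 h in the PIEZO1 experiment they do not.

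Of the core genes outside the naming rule, 16 could be tested, found by their identifiers. They are of the same family and from the same libraries as the members, so they are no independent evidence. With GSK205 at 3 h 13 rose and none fell (median 0.24), with loading and GSK205 against loading at 3 h all 16 rose (0.29), and with loading at 9 h 15 rose (0.24). Of all genes, 14.6, 7.11 and 12.5% were called higher in these comparisons, in that order. Loading with GSK205 against loading at 9 h lowered 9 (median -0.17, with 1.99% of all genes called lower). RPS25 and RPS24 led the GSK205 rise at 0.50 and 0.46, and RPLP1, the third stalk protein, led the loading rise at 0.35.

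Other genes of the translation pathway were counted from lists. Of all genes, 14.6% were called higher with GSK205 at 3 h (27.1% called). With loading, 7.86% were called higher at 3 h (10.2% called) and 12.5% at 9 h (23.7% called). Of 25 elongation factors and other TOP mRNAs, GSK205 at 3 h raised 18 and lowered none (median 0.27), led by BTF3 (0.48) and EIF2S3 (0.45). Loading at 9 h raised 13 and lowered 2 (0.16), among them EEF1A1, which brings aminoacyl-tRNA to the ribosome (0.26), and PABPC1, the poly(A) binding protein (-0.20). The 94 assembly factors process ribosomal RNA and build the subunits. With GSK205 at 3 h 16 of them rose and 23 fell (median -0.04), with PWP2 at -0.58 and RRS1 at -0.51. With loading at 3 h 27 of them rose and none fell (0.15), among them NOLC1 (0.50) and DDX18 (0.40), and at 9 h 30 rose and 3 fell. MYC, a known activator of ribosome genes, was at 0.52 with loading at 3 h and at -0.63 with loading and GSK205 against loading, both called. The difference between these lists and the members was not tested.

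GSK101 at 9 h raised 74 of 94 assembly factors and lowered 3 (62.3% of all genes called, 29.3% higher), with a median of 0.45. They were led by LSG1 (1.65) and EFL1 (1.45), which free the new large subunit of its last assembly factors. EIF4E, the cap-binding protein, was 2.15 higher there. These values are under TMM. In this comparison totals scaling took the median of the members from 0.35 to 0.03, and the assembly factors were not counted under it. The 74 mitochondrial ribosomal proteins, which build a separate ribosome, had 25 higher and none lower with loading at 9 h (median 0.16) and 32 lower and 2 higher with GSK101 at 3 h (-0.19). Nuclear genes of the respiratory chain had 45 of 66 higher with loading at 9 h (0.24) and 40 lower with GSK101 at 3 h (-0.23). Of all genes, 12.5% were called higher with loading at 9 h. With GSK101 at 3 h, 18.0% were called lower and 22.0% higher.

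In the PIEZO1 experiment most comparisons called no member. The spread between replicates was larger there (biological coefficient of variation 0.282 at 3 h and 0.300 at 9 h, against 0.107 and 0.0874 in the TRPV4 experiment). A p above the threshold there does not show that the members stayed level.

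**Figure D5:**
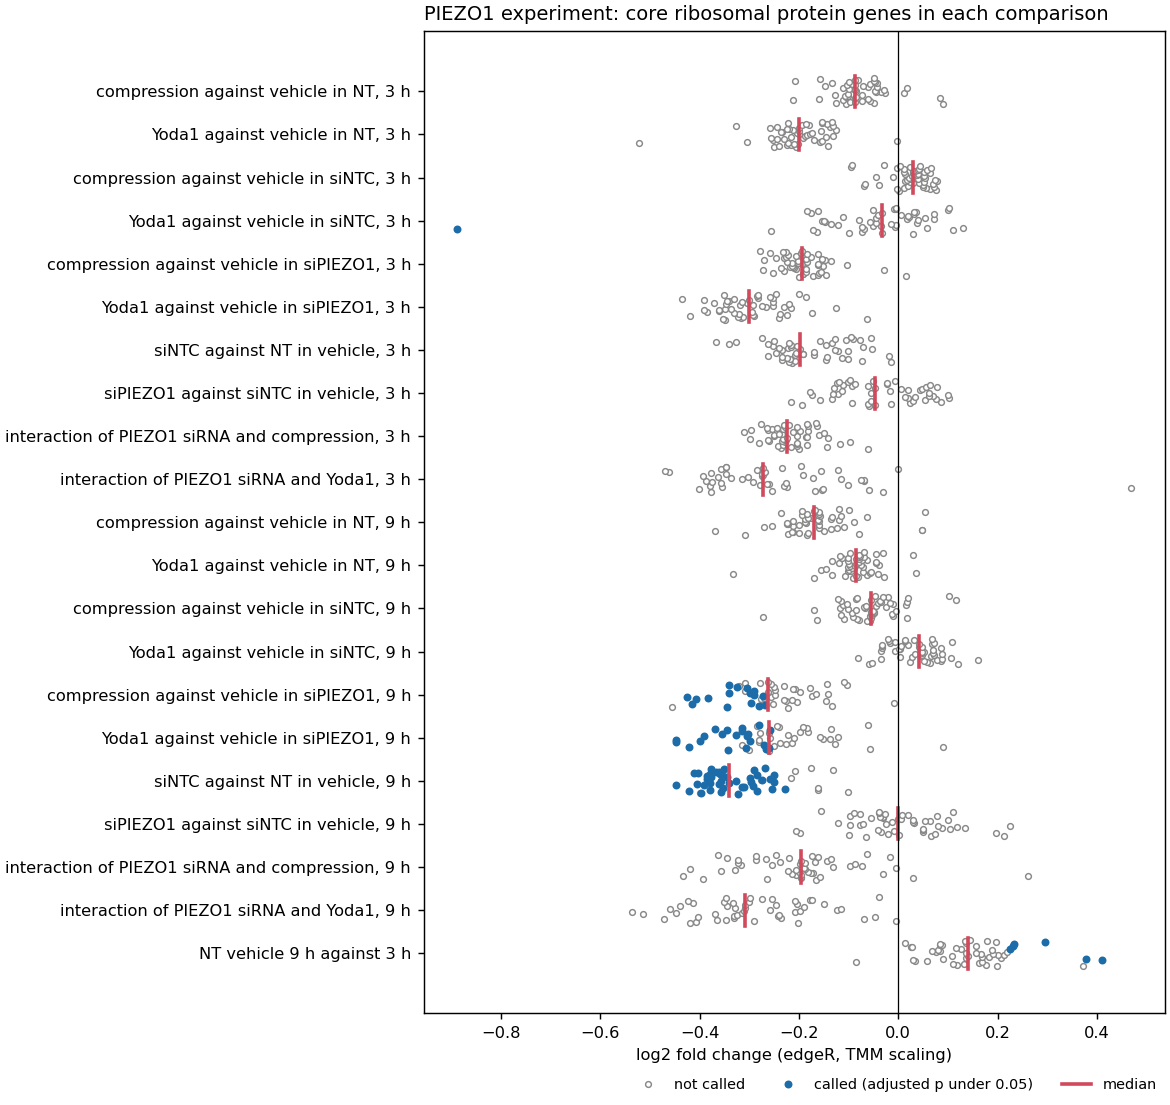
Log2 fold change (horizontal axis) of the 51 core members in each comparison of the PIEZO1 experiment (vertical axis), with 1 point per gene, filled where it passed the test, and a bar at the median. Most points are open, and siNTC against NT at 9 h holds the most filled points, all below 0.

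Transfection with the non-targeting siRNA lowered 42 of 56 members at 9 h and raised none (5.3% of all genes called, 2.63% lower), with a median of -0.33. It lowered 24 of 29 large-subunit and 18 of 22 small-subunit members. RPL34, a large-subunit protein, was at 1126, 1115, 1096 and 1287 CPM in NT and at 754, 832, 822 and 983 CPM in siNTC vehicle constructs, without overlap (-0.45). RPL23 (-0.42) and RPS28 (-0.41) followed. The members' share of counts was 7.79, 7.76, 7.93 and 8.60% in NT and 6.42, 6.56, 6.58 and 7.74% in siNTC, a narrow gap set by siNTC replicate 4. Without siNTC replicate 1 the count was 15, without NT replicate 4 it was 17, and with totals scaling 30. Nuclear respiratory chain genes were lower for 26 of 67 and higher for 1.

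At 3 h the same comparison called none by edgeR (7.53% of all genes called), with 11 members at an unadjusted p under 0.05, 1 by DESeq2 and a median of -0.19. It called 3 without NT replicate 4 and 1 without siNTC replicate 1, and without NT replicate 1 the median was -0.12 with 2 members at an unadjusted p under 0.05. The siNTC effect at 9 h against 3 h was called for no member by edgeR (0.168% of all genes called, 3 at an unadjusted p under 0.05, and 0 by DESeq2), so the harvests were not shown to differ.

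In siPIEZO1 constructs both stimuli were below vehicle at 9 h. Compression lowered 16 members and raised none (2.18% of all genes called, 0.833% lower; median -0.26), and Yoda1 lowered 21 and raised none (2.54% called, 0.838% lower; median -0.26). RPL35, a large-subunit protein, was at 528, 610, 524 and 763 CPM in vehicle, 447, 455, 419 and 507 CPM with compression and 441, 416, 436 and 485 CPM with Yoda1. The stimulated libraries lay below all vehicle libraries, and vehicle replicate 4 was far above the rest. Both counts were 0 without that library, with medians of -0.16 and -0.18, and both comparisons share the vehicle libraries. For compression the count was 26 without vehicle replicate 1 or 3, 6 without vehicle replicate 2, and 4, 5 and 2 without compression replicates 1, 2 and 3. For Yoda1 it was 5 and 32 without vehicle replicates 2 and 3, and 13, 2 and 3 without Yoda1 replicates 1, 2 and 3. With only the groups compared in the fit the counts were 4 for compression and 0 for Yoda1.

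The same stimuli in NT and siNTC constructs at 9 h called no member by edgeR in the main fit. Members at an unadjusted p under 0.05 were 29 for compression in NT (median -0.17, 3.51% of all genes called), 3 for compression in siNTC (-0.06, 6.43%), 1 for Yoda1 in NT (-0.08, 0.0%) and 0 for Yoda1 in siNTC (0.05, 0.0%). DESeq2 called 2 and 1 for compression and 0 for Yoda1 in either. With a replicate block edgeR called 11 in NT and 2 in siNTC for compression, and 0 for Yoda1 in either. That block also gave 3 and 15 for the interactions with compression and Yoda1 that follow. The interactions that ask whether the stimulus effect differs between siPIEZO1 and siNTC called none by edgeR (1.09% of all genes called for compression and 0.0269% for Yoda1), with 15 and 36 members at an unadjusted p under 0.05 and 2 each by DESeq2. Leaving out a library gave 1 call in 3 cases (siNTC compression replicate 1 and siPIEZO1 vehicle replicate 3 for compression, siNTC vehicle replicate 4 for Yoda1), and 1 call for compression in NT without compression replicate 4. Members at an unadjusted p under 0.05 fell from 29 to 10 for compression in NT without NT vehicle replicate 4, and from 15 to 3 and 36 to 20 for the interactions with compression and Yoda1 without siPIEZO1 vehicle replicate 4.

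At 3 h, compression and Yoda1 in NT, siNTC and siPIEZO1 constructs called 1 member in all: RPL26 with Yoda1 in siNTC (5.4% of all genes called, 3.93% lower). It was at 55.1, 48.9, 53.2 and 43.0 CPM with vehicle and 31.1, 11.0, 31.0 and 35.1 CPM with Yoda1, without overlap (-0.89), and Yoda1 replicate 2 was the lowest. The call was lost without that library or without vehicle replicate 1. The other 5 comparisons called none by edgeR, against 6.27, 0.409, 0.911, 0.6 and 0.262% of all genes (compression and Yoda1 in NT, compression in siNTC, then compression and Yoda1 in siPIEZO1). Members at an unadjusted p under 0.05 numbered 1, 9, 1, 10 and 49 in that order, and DESeq2 called 0 in each. The last had a median of -0.30, and 1 call without vehicle replicate 3. Without siPIEZO1 vehicle replicate 1 its median was -0.08 with 0 members at an unadjusted p under 0.05, and that of compression in siPIEZO1 went from -0.20 to 0.04 with 1. For Yoda1 in NT the 9 members went to 0 without NT vehicle replicate 1 and to 36 without replicate 4. The 3 h interactions of PIEZO1 siRNA with compression (0.0% of all genes called) and with Yoda1 (0.938%) called no member by edgeR or DESeq2, with 0 and 16 members at an unadjusted p under 0.05 (0 and 1 without siPIEZO1 vehicle replicate 1).

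PIEZO1 siRNA against siNTC in vehicle called no member by edgeR at 3 h (5.07% of all genes called, median -0.02, 1 at an unadjusted p under 0.05, 0 by DESeq2) or at 9 h (10.8%, 4 and 0). At 3 h siPIEZO1 replicate 1 held 8.90% of its counts in the members and the other 3 held 5.98, 5.66 and 6.27%. Without that library 22 members were called, with a median of -0.25, and at 9 h 2 were called without siPIEZO1 replicate 4. In NT vehicle constructs, 9 h against 3 h had 6 members higher and 2 lower (21.4% of all genes called, 11.2% higher and 10.2% lower), with RPL3 (0.41), RPL30 (0.38) and RPS6 (0.30) higher and RPL7L1 and RPS27L (-0.29 each) lower. This count of 8 was 4, 2 and 5 without the 3 h replicates 2, 3 and 4, and 3, 2 and 4 without the 9 h replicates 1, 3 and 4.

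Over the 15 comparisons of the TRPV4 experiment, RPL30, RPL37 and RPLP2 were called most often, in 9 each. RPL10A was never called: its line held only 33 to 215 counts per library at 3 h, and RPL29 held 94 to 431. Ribosomal protein genes have many near-identical processed copies, and how the authors' counting treated reads that fit several copies is not given in the sources used here, so low lines such as RPL10A, RPL29 and RPL26 are uncertain. The line named RPL22 is described in the table as ICMT, a methyltransferase, and its values are uncertain for that reason. The counting strand is not given either, so reads from antisense or overlapping genes cannot be told apart.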

How the data were processed

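RNA of 120 libraries (30 groups of 4) was sequenced. The deposited table holds counts per gene that the authors made with Trim Galore, STAR and HTSeq on Sscrofa11.1, per the submitters' processing notes. Tool versions and the strand option of the counting were not found in the sources used here. Per the labels' protocols, the TRPV4 experiment used ribosomal RNA depletion with random priming and the PIEZO1 experiment an ultra-low-input cDNA kit from 10 ng of RNA. Of 32388 lines, 481 repeated an identifier with identical counts and were dropped.

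Counts were tested with edgeR 4.0.16 (R 4.3.3): filterByExpr with a count minimum of 10, TMM scaling, quasi-likelihood fit and test, 1 model per experiment and harvest with all its groups, and Benjamini-Hochberg adjustment over all genes tested (called under 0.05). Vehicle constructs at 9 h against 3 h were fitted on those groups alone, and changes of effect between harvests on both harvests of the groups they involve (40 TRPV4 libraries, without loading with GSK205, and 16 PIEZO1 libraries, NT and siNTC vehicle). The script was tested on simulated counts. The 5 tests of a change of effect between harvests were added after the first results were seen. Groups came from the labels, and replicate numbers were not treated as pairs.

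The members and gene lists were chosen with earlier results of these data known, so no list is independent evidence. Named in each comparison were up to 3 called members with the largest and the smallest log2 fold change, the fixed paralogue, PCR reference, stalk and 5S lists, and up to 2 called genes each way of other lists. Members quoted for per-library values or as not called were picked after their values were seen. The part of the rule that ranks members by level per length was not applied, since no transcript lengths were used here. The alternatives were library totals as scaling, no low-count filter, TMM without the members, protein-coding genes only, a replicate block, only the groups compared, DESeq2 1.42.0 and leaving out each library. No sequences were used here.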

Additional observations from a re-analysis of the deposited data

Results flagged for a closer look

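The share of counts held by the members was set apart in 1 library of NT compression at 3 h (replicate 4, 7.37%, the others at 6.75 to 6.81%) and in 1 of siNTC vehicle at 9 h (replicate 4, 7.74%, the others at 6.42 to 6.58%). The summed level of the core members in siPIEZO1 vehicle at 3 h replicate 1 was 92518 CPM, far above its group. Dixon's gap test for 4 values picked these. It was run on both measures in all 30 groups, and chance picks about 1 in 20 groups for each measure. Some flags are therefore expected by chance.

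The loading effect differed with GSK205 for 1 member at 3 h and 9 members at 9 h. The effect at 9 h differed from that at 3 h for 52 members under GSK101 and 41 under IL-1. It differed for 30 under loading and 30 under GSK205. Each was a test of the difference itself, added after the first results were seen.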

How the results depend on the processing

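Counts of called members are given here as the main count and then the alternative. With totals scaling: GSK101 at 3 h 26 and 44, IL-1 at 3 h 25 and 3 (1 higher, 2 lower), GSK101 at 9 h 49 and 13, IL-1 at 9 h 50 and 34 (reversed), GSK205 at 9 h 5 and 4 (all lower), loading with GSK205 against loading at 9 h 23 and 15, interaction at 9 h 9 and 3, DMSO 9 h against 3 h 11 and 1, compression in siPIEZO1 at 9 h 16 and 9, PIEZO1 siRNA in vehicle at 9 h 0 and 2, and the change of the IL-1 and loading effects 41 and 10, 30 and 19. RPL35 (GSK101, 3 h) went to -0.013 and RPS9 (IL-1, 9 h) to -0.00028. With protein-coding genes only, GSK205 at 9 h gave 6 (2 higher, 4 lower), loading with GSK205 against loading at 9 h 35 and DMSO 9 h against 3 h 17. Without a low-count filter the 3 h interaction gave 2.

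With only the groups compared: IL-1 at 3 h 10, GSK205 at 9 h 1, Yoda1 in NT at 3 h 1, Yoda1 in siNTC at 3 h 0, siNTC against NT at 3 h 7, compression in NT at 9 h 1, and compression and Yoda1 in siPIEZO1 at 9 h 4 and 0. With DESeq2: interaction at 3 h 2 and at 9 h 22, GSK205 at 9 h 10, loading with GSK205 against loading at 9 h 37, DMSO 9 h against 3 h 17, siNTC against NT at 3 h 1, compression at 9 h 2 (NT), 1 (siNTC) and 30 (siPIEZO1), and the PIEZO1 siRNA interactions at 9 h 2 each.

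Same-numbered libraries did not all deviate together (mean correlation -0.0082 and -0.014 at 3 h and 9 h in the TRPV4 experiment, 0.036 and 0.11 in the PIEZO1 experiment, each with negative pairs), and 6, 2, 9 and 15 libraries correlated best with their own number, so the PIEZO1 experiment at 9 h, with 15 of 36, came nearest to pairing. Libraries of different numbers had mean correlations of 0.0028 and 0.0047 in the TRPV4 and -0.012 and -0.030 in the PIEZO1 experiment. The replicate numbers were not taken as pairing. A replicate block gave 0 for the interaction at 3 h, 6 for DMSO 9 h against 3 h, 1 for siNTC against NT at 3 h, 11 (NT), 2 (siNTC) and 33 (siPIEZO1) for compression at 9 h, 36 for Yoda1 in siPIEZO1, 2 for PIEZO1 siRNA at 9 h, 3 and 15 for the 9 h interactions with compression and Yoda1, and 3 for NT 9 h against 3 h.

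Leaving out 1 library at a time gave, at 3 h, 19 to 27 for GSK101, 12 to 25 for IL-1, 1 to 7 for loading, 33 to 37 for GSK205, 32 to 48 for loading with GSK205 against loading, 1 to 1 against GSK205 and 0 to 2 for the interaction. At 9 h in the same order it gave 49 to 50, 49 to 51, 43 to 47, 2 to 8, 7 to 24, 7 to 20 and 6 to 17, and 5 to 21 for DMSO. In the PIEZO1 experiment it gave 0 to 1 for Yoda1 in siNTC and siPIEZO1 at 3 h, 0 to 3 for siNTC and 0 to 22 for PIEZO1 siRNA at 3 h, 0 to 1 for compression in NT, 0 to 26 and 0 to 32 for compression and Yoda1 in siPIEZO1, 15 to 43 for siNTC, 0 to 2 for PIEZO1 siRNA and 0 to 1 for both interactions at 9 h, and 2 to 12 for NT 9 h against 3 h. Changes between harvests gave 50 to 52 (GSK101), 34 to 42 (IL-1), 23 to 38 (loading) and 22 to 32 (GSK205). The alternatives other than leaving out a library were also followed for the named members (up to 3 called each way per comparison). Of those values, 475 kept direction and call, 35 lost the call and 2 reversed. Single members were not tallied over the fits that left out a library. The cause of these shifts was not tested, and low lines (RPL10A, RPL29, RPL3L) limit single members.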
